A study of Mus musculus with 9 samples.

Results

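The genes described here are 9 that serve antigen presentation by MHC class II molecules: Ciita, H2-Aa, H2-Ab1, H2-Eb1, H2-DMa, H2-DMb2, H2-Oa, H2-Ob and Cd74. They were chosen by name for their function and are 9 of 20665 protein-coding genes measured on the autosomes. CpG methylation was read over the span of each gene (GRCm38.p6) with 5 kb on each side. The samples were splenic B cells, purified by magnetic depletion of other cells, from mice with the wild type Kmt2d gene (WT), or heterozygous (HET) or homozygous (HOM) for an A>T change at position 98835228 of chromosome 15 that replaces an isoleucine of KMT2D by asparagine (Ile5482Asn). No treatment was given, and the labels name no strain, age or shared allele. ENU, the name of a chemical mutagen, stands in the column names of both mutant genotypes but not of WT, so genotype and that label cannot be told apart. The deposited table has 1 pair of count columns per genotype, called a library here, while the labels list 2 B cell samples of each genotype. No source read for this work says if a column is 1 of these samples or a pool of the pair, so a difference between libraries has no replicate check.

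MHC class II molecules sit on the surface of B cells, dendritic cells and macrophages and show peptides of engulfed proteins to CD4 T cells. Each is a pair of an alpha and a beta chain that is assembled on the invariant chain, and the peptide is fitted in endosomes with the help of H2-DM, which H2-O restrains. CIITA, the class II transactivator, binds no DNA itself: it is recruited by the factors that sit on the X and Y boxes of class II promoters, the RFX, CREB and NF-Y proteins. Low CpG methylation marks promoters and enhancers that are open in a cell type. KMT2D places H3K4 monomethylation, a mark of enhancers.

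The X and Y letters were searched in the promoters first, since these are the sites through which CIITA acts. RefSeq promoters (GRCm38.p6) were matched for 6 of the 9 members, and those of Ciita, H2-Ab1 and Cd74 were not. The search was for GNNAC followed, after 20 to 35 bases, by ATTGG, on both strands. The ATTGG letters are those of the Y box. On the printed strand the pair occurred in 4.69% of 32851 promoters (8.91% on either strand), with the 50 bases after the start included. In the members only the 250 bases before the start were searched on that strand. The pair occurred there in H2-Aa, H2-Eb1, H2-Oa and H2-Ob. The 250 bases before the start of these 4 genes are shown 5′ to 3′ with the 2 elements in capitals, because the spacing and position of the pair are nearly shared.
H2-Aa: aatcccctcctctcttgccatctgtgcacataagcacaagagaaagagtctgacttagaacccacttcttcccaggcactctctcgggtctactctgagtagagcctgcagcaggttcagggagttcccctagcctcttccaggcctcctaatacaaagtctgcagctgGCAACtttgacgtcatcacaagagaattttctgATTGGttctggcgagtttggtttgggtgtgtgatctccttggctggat
H2-Eb1: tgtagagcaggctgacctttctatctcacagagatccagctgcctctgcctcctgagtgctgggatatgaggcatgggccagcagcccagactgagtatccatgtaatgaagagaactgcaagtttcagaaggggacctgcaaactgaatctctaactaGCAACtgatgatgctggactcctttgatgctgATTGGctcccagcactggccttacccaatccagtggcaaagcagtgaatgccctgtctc
H2-Oa: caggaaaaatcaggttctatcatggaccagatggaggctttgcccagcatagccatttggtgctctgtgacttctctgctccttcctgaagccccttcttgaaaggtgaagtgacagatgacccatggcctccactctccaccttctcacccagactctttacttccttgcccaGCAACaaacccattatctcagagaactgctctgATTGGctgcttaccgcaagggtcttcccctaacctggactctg
H2-Ob: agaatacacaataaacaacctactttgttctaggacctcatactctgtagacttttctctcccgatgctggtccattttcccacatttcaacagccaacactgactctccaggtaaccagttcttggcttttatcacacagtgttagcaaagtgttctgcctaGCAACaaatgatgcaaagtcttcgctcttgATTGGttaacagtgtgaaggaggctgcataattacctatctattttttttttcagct
The first base of the pair stood 81 bases before the start of H2-Aa (start at position 34287823 of chromosome 17, minus strand), 91 before H2-Eb1 (34305867, plus strand), 76 before H2-Oa (34092379, plus strand) and 87 before H2-Ob (34238905, plus strand). The gap between the elements was 28 bases in H2-Aa and H2-Oa, 27 in H2-Eb1 and 25 in H2-Ob. The first element read GCAAC in all 4.

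The pair at that spacing was not found in the 250 bases before the starts of H2-DMa and H2-DMb2. ATTGG occurs in the H2-DMb2 sequence below and in another RefSeq window of H2-DMa. In H2-DMb2, TTAAC precedes ATTGG at a spacing within the searched range, and differs from GNNAC only in its first base. The search therefore does not show that H2-DMb2 lacks an X box. For H2-DMa only the windows of the RefSeq starts at 34122832 and 34125518 were searched. Its span reaches to 34139101, so the search does not show that H2-DMa lacks the pair elsewhere. The 250 bases before the start of H2-DMa and of H2-DMb2 are shown with each CpG in capitals, because the first lies in a CpG island and the second is poor in CpGs.
H2-DMa: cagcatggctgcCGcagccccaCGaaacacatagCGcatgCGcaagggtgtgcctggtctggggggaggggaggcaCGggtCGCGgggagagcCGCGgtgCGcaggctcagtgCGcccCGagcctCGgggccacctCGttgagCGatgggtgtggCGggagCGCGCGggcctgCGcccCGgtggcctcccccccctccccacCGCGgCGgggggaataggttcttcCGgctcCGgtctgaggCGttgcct
H2-DMb2: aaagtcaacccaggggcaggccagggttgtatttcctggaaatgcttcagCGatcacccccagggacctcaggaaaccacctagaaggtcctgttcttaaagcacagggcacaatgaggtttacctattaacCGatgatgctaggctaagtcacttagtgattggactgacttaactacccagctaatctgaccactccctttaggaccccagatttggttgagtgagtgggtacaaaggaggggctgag
The H2-DMa window (start at 34122832 of chromosome 17, plus strand) held 29 CpGs with the 50 bases after the start included, and that of H2-DMb2 (34145249, plus strand) held 3. A second H2-DMa start at 34125518 had 0 CpGs in its window, and so did H2-Eb1. All 408244 CpGs of the promoter table stood at CpG positions of the count table, which checks the build and the strand.

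CpG methylation at these starts was low at H2-Aa, H2-Oa and H2-DMa and higher at H2-Ob and H2-DMb2. In H2-Aa it was 3.64% in WT (Wilson 95% interval 1.0 to 12.3, 55 CpG reads), 1.90% in HET (105 reads) and 0% in HOM (0 of 84 reads, which allows up to 4.37% by the same interval). The CpG 166 bases before the start had 0 reads in WT. One of the 3 H2-Aa CpGs lies 71 bases before the start, between the X and Y letters, and 0 of 27, 0 of 37 and 0 of 32 reads were methylated there in WT, HET and HOM, which allows up to 12.5%, 9.41% and 10.7%. H2-Oa read 3.30%, 5.10% and 7.50% in WT, HET and HOM. Its CpG 30 bases before the start carried this difference, with 3 of 31, 5 of 32 and 9 of 40 methylated reads, while the other two were at 0 in every library. The H2-DMa window was at 0%, 0.704% and 0% over 184, 142 and 163 reads, where 0 allows up to 2.05% in WT and 2.30% in HOM. This window lies in a CpG island that reaches into the CpG-richer end of Brd2, so its level is not that of H2-DMa alone. H2-Ob (19.6%, 25.4% and 26%) and H2-DMb2 (21.6%, 15.1% and 23.1%) stood higher than the median promoter, which was 1.61%, 1.59% and 1.49%. Outside H2-DMa the windows rest on 51 to 120 reads, so the intervals span several points. The windows were not tested.

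Over the whole table, 21875444 CpGs had 200824258 (WT), 282430649 (HET) and 215454437 (HOM) CpG reads. Far from CpG islands WT read 81.7%, HET 81.02% and HOM 78.3%, a HOM minus WT difference of -3.44 points. Below, a gene end is the window from 1000 bp outside to 500 bp inside the span, a body is the span between them, and each gene has a CpG-richer and an other end, neither of which need hold the start. A region was called different where the pooled levels differed by at least 10 percentage points and Fisher's exact test of methylated against unmethylated reads (two-sided) gave a p, Benjamini-Hochberg adjusted over all regions of its class, below 0.05. This p is given as the exact adjusted p. Such a test compares 2 libraries, not genotypes, and all intervals cover counting error only. HOM and HET were both set against the same WT library.

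The bodies of all 9 members were less methylated than the median gene. In WT they ran from 23.8% in H2-Ab1 to 70.3% in Ciita, and the median of all 18299 gene bodies was 79.2%, which places the members between the 4.20 and 26.2 percentiles. In HOM minus WT, 1 of 9 bodies was called lower and 0 higher, in HET minus WT 1 lower and 0 higher, and in HOM minus HET 1 lower and 0 higher. Of all bodies, 0.279% were called higher and 2.94% lower in HOM minus WT, 0.541% and 0.798% in HET minus WT, and 0.273% and 2.06% in HOM minus HET. The members' median difference was -4.25 points in HOM minus WT, beside -3.24 over all bodies, and -2.42 in HET minus WT, beside -0.47. The class II region of chromosome 17 was low as a whole: the stretch from H2-Oa to H2-Eb1 (chr17:34092379-34316674), with 7 members and 6 neighbours, read 51.8%, 52.1% and 49.3% in WT, HET and HOM, where the whole chromosome read 74.7%, 74.5% and 71.2%. Its HOM minus WT difference, -2.53 points (-3.26 to -1.79), was smaller in size than the chromosome's -3.50.

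CpG-richer ends gave 2 of 9 called higher, H2-Oa and H2-DMb2, and 0 lower in HOM minus WT, where 1.05% of all 19388 such ends were called higher and 3.66% lower. In HET minus WT Fisher's exact test called 0 member ends (1.47% of all higher, 1.31% lower), and H2-Aa came nearest at -10.5 points (exact adjusted p = 0.0787). In HOM minus HET the same pair was called higher and 0 lower (0.774% and 3.07%). Other ends gave 1 of 9 called lower and 0 higher in each comparison: H2-Oa in HOM minus WT (0.838% of all higher, 4.23% lower), Cd74 in HET minus WT (0.788% and 1.06%) and H2-Oa in HOM minus HET (0.777% and 3.75%).

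The members also held 36 short runs of low-methylated CpGs, of which 35 were tested. A run here is a stretch of at least 4 CpGs and 100 bp whose running level over 3 CpGs, averaged over the libraries, stayed below 50%. In HOM minus WT 2 were called higher and 0 lower (3.19% and 1.69% of 69978 runs), in HET minus WT 1 higher and 3 lower (1.71% and 2.02%) and in HOM minus HET 2 higher and 1 lower (3.18% and 1.7%). The 3 runs lower in HET belong to Ciita, H2-Aa and Cd74. The members' median run difference was -2.04 points in HET minus WT, beside 0.11 over all runs, and 0.71 in HOM minus WT, beside -0.04. CpGs on one read are not independent. After division of the counts by the mean number of CpGs per read (counts per read below), 0 member ends and 0 member runs were called in any comparison. Nearly all calls were lost over all features too, with 1 higher and 1 lower left of 17237 CpG-richer ends and 16 higher and 6 lower of 41944 runs in HOM minus WT, so this count says nothing particular to the members.

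**Figure D1:**
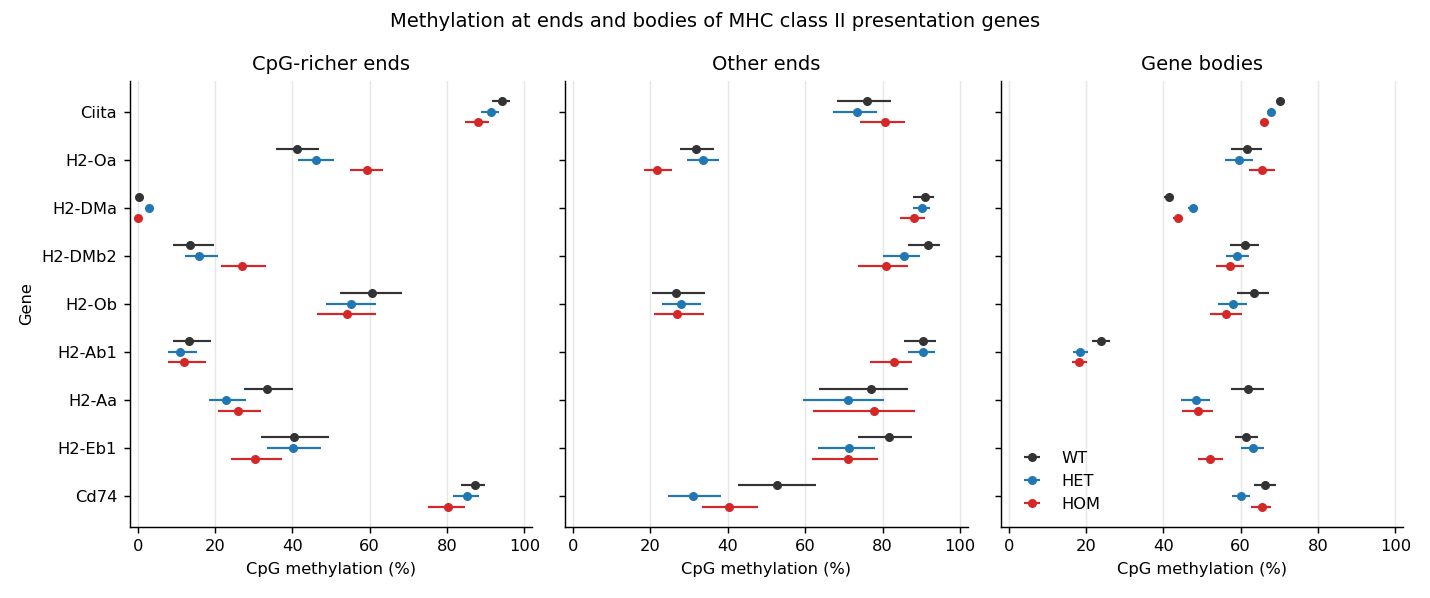
Pooled CpG methylation (x axis, percent) of the 9 genes (y axis) at CpG-richer ends, other ends and bodies in the WT, HET and HOM libraries, with Wilson 95% counting intervals as bars. H2-Aa bodies read 61.9% in WT and 48.3% and 48.9% in HET and HOM, while the Ciita body lies within 4.25 points in all 3.

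Ciita, the transactivator (chr16:10480014-10531064), had the most methylated body of the members in each library. Its CpG-richer end, the upper one, was among the highest of all such ends (percentiles 98.3, 95.8 and 94.0 for WT, HET and HOM). Its other end was below the median of other ends (percentiles 24.6, 22.2 and 43.4). No RefSeq promoter was matched for Ciita, so which end holds its start was not assigned. Its CpG-richer end read 94.3%, 91.4% and 88.0% in WT, HET and HOM, its other end 75.9%, 73.4% and 80.7%, and its body 70.3%, 67.9% and 66.0%. None of these 3 regions differed by 10 points in any comparison. The body rested on 6720 to 9612 reads per library, so its HOM minus WT difference of -4.25 points had a narrow interval (-5.74 to -2.74, exact adjusted p = 1.52e-07) and was close to the -3.24 of the median gene.

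The low methylation of Ciita lay inside the gene, in 9 low-methylated runs. The longest Ciita run (chr16:10488666-10490282, 32 CpGs) begins 8652 bp above the lower gene end and read 21.9%, 12.9% and 20.98%. HET minus WT was -9.01 points there (-13.8 to -4.39), short of the 10 points. A run at chr16:10515757-10516599 (14 CpGs, 177 to 317 reads), which the RefSeq table also places in LOC115488669, read 18.1%, 7.27% and 25.2%. It was the lowest Ciita run in HET, and was called lower in HET than in WT (-10.8 points, -17.6 to -4.68, exact adjusted p = 0.0166) and higher in HOM than in HET (18 points, 12.2 to 23.6, exact adjusted p = 4.79e-07). HOM minus WT was not called (7.16 points, -0.587 to 14.3). The other 7 Ciita runs read between 18.4% and 35.8% in WT, and 1 of them had under 30 reads in HOM and was not tested.

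H2-Aa, the alpha chain of the I-A molecule (chr17:34282744-34287823), had the widest HOM and HET differences from WT among the members' bodies. Its body (39 CpGs) read 61.9% in WT (57.6 to 66.1, 494 reads), 48.3% in HET (44.7 to 51.98, 720 reads) and 48.9% in HOM (44.9 to 52.9, 585 reads). WT stood alone, with an interval that overlaps neither mutant library's, and HET and HOM lay within 0.56 points of each other. The body was called lower in HOM (-13.1 points, -18.9 to -7.11, exact adjusted p = 6.68e-05) and in HET (-13.6 points, -19.1 to -7.93, exact adjusted p = 5.03e-05). Less the genome-wide open sea difference, the HOM value was -9.62 points, under the size required for a call. With counts per read the HOM call held (exact adjusted p = 0.0307) and the HET call did not (exact adjusted p = 0.0983).

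The difference at H2-Aa went beyond the gene. The 120 CpGs of the span with 5 kb on each side read 64.9%, 50.4% and 47.3% (WT, HET, HOM). HOM minus WT was -17.5 points (-21.2 to -13.7), rank 27 from the lowest among 20168 genes measured the same way, and HET minus WT was -14.4 points (-17.9 to -10.9), rank 17. Both were called (exact adjusted p = 4.26e-18 and 1.97e-13), and both were also called with counts per read (exact adjusted p = 2.28e-07 and 0.000111). Of the 9 members, 2 (H2-Aa and H2-Eb1) were called lower over such whole spans in HOM minus WT, 1 (H2-Aa) in HET minus WT and 0 in either direction in HOM minus HET, beside 2.31%, 0.412% and 1.56% of all genes. With counts per read 1.95% and 0.204% of all genes were called lower in HOM minus WT and HET minus WT. As a mean of single CpG levels, in place of pooled reads, the H2-Aa differences were -8.30 and -9.19 points, short of a call.

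Both flanks of H2-Aa differed from WT by more points than the gene itself. The 5 kb below the gene held 17 CpGs and read 87.2%, 67.2% and 51.3% (WT, HET, HOM) over 115 to 204 reads. The 5 kb above it, on the side of the start, read 66.3%, 50% and 45.6%. The start itself was low in all libraries: a run over it (chr17:34287691-34288195, 10 CpGs) read 18%, 15.96% and 17.1%, and no comparison of it was called. Another run, 3778 bp outside the upper gene end (chr17:34291601-34291929), was the lowest of H2-Aa at 5.66%, 1.59% and 3.48%. Inside the gene, next to the start, a further run (chr17:34286542-34287357, 11 CpGs) read 37.3%, 19.5% and 33.7%. There HET was called lower than WT (-17.8 points, -26.1 to -9.52, exact adjusted p = 0.0021) and HOM higher than HET (14.2 points, exact adjusted p = 0.0164). HOM minus WT was -3.63 points (-13.0 to 5.88) and was not called. The HOM minus HET call was lost with CpGs of at least 5 reads in every library (12.6 points). At 72 single CpGs with at least 5 reads in every library, HOM was below WT at 39 and above at 23, and HET was below at 43 and above at 19.

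**Figure D2:**
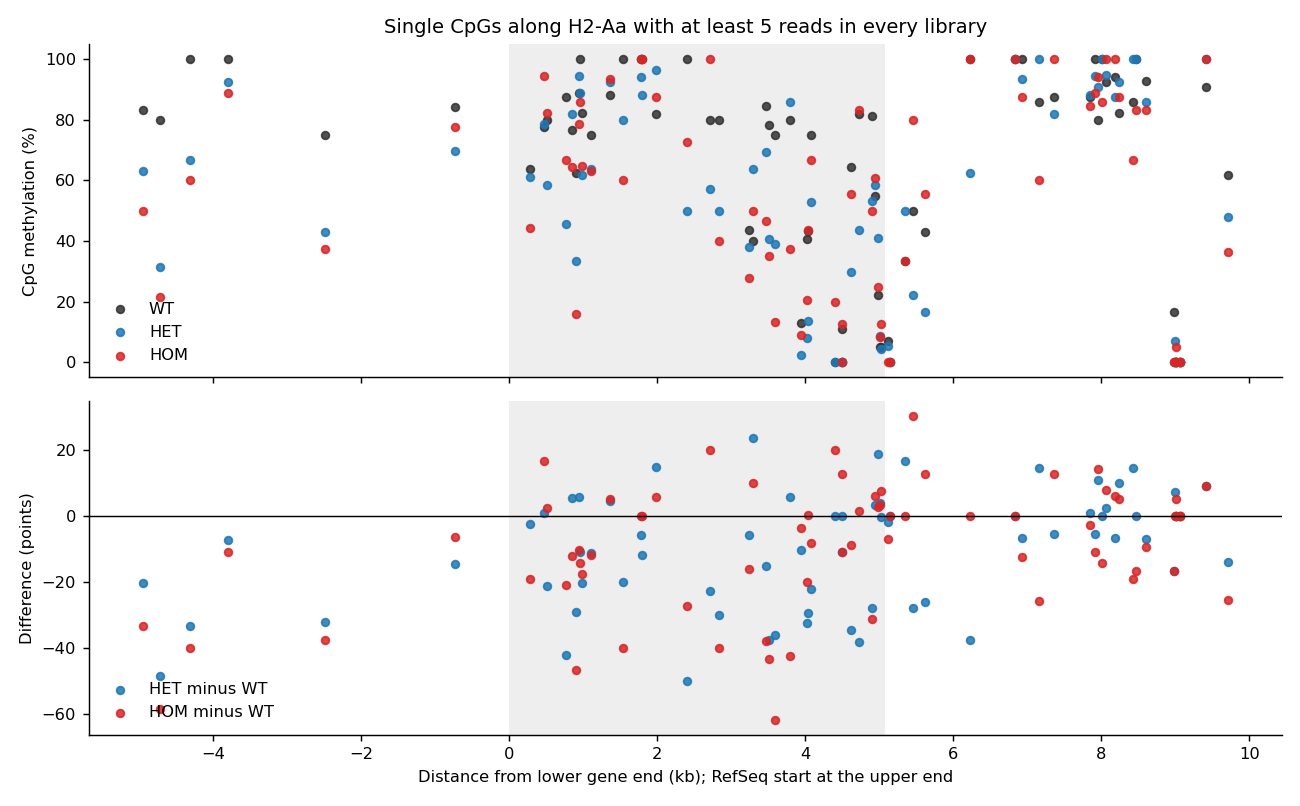
Methylation of 72 single CpGs along H2-Aa (upper panel, percent, 1 point per library) and their HET minus WT and HOM minus WT differences (lower panel, percentage points) against distance from the lower gene end in kb, with the gene span in grey. CpGs at the start, near the upper edge of the grey span, are low in all 3 libraries, and HOM is below WT at 39 of the 72 CpGs and HET at 43.

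Marker genes of B cells and T cells also differed between the libraries. At CpG-richer ends the B cell identity list (15 genes, Cd79a among them) had a median level of 44.3% in WT, 35.5% in HET and 37.8% in HOM. Against WT, 4 of 15 genes were called lower in HET, 4 of 15 lower in HOM and 0 higher. Of all 19388 such ends, 1.31% were called lower and 1.47% higher in HET, and 3.66% lower and 1.05% higher in HOM. The T cell list had 52.5%, 57.6% and 53.6%, with 5 of 13 called higher in HET, among them Cd3e (52.5%, 77% and 55.1%), and 2 higher and 1 lower in HOM. At RefSeq promoters with enough reads, 10 B cell genes had a median of 7.70%, 3.61% and 9.08% and 7 T cell genes 15.1%, 10.04% and 21.3%. The list of myeloid and dendritic cells, which also present antigen on class II molecules, had medians of 81.8%, 79.6% and 75.3% at CpG-richer ends, with 2 of 15 called higher and 1 lower in HET and 1 higher and 1 lower in HOM. Of 7 NK cell genes 1 was called lower in HET and 0 in HOM, and of 9 erythroid and platelet genes 0 in either. In HOM minus HET, 5 of 13 T cell genes were called lower and 0 higher, and 0 of 15 B cell genes were called. There 1 myeloid and 1 erythroid gene were called lower and 1 NK cell gene higher. Of all such ends, 3.07% were called lower and 0.774% higher in HOM minus HET. The part of a shift in cell composition in the H2-Aa values was not tested.

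H2-Ab1, the beta chain that pairs with H2-Aa (chr17:34263227-34269418), had the lowest body of the 9. It read 23.8%, 18.5% and 18.2% in WT, HET and HOM over 1296 to 1706 reads. The difference from WT was -5.66 points in HOM (-8.66 to -2.67) and -5.32 in HET (-8.30 to -2.37), which is less in size than the 10 required. The gene held a CpG island (chr17:34264478-34265096, 83 CpGs) that was nearly free of methylation at 0.143%, 0.851% and 0.126%. Around it lay a run of 131 CpGs (chr17:34262989-34265546) at 4.83%, 3.75% and 3.83%, which also reached the CpG-richer end (13.4%, 10.99% and 11.9%). The far end was high at 90.4%, 90.5% and 82.9%. No region of H2-Ab1 was called in any comparison.

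H2-Eb1, the beta chain of the I-E molecule (chr17:34305867-34316674), read lower in HOM than in WT in its body, at both ends and in both flanks. The body read 61.5%, 63.1% and 52.2% over 893 to 1052 reads, so that HOM stood below both other libraries. HOM minus HET was called (-10.9 points, -15.3 to -6.53, exact adjusted p = 5.22e-06), and HOM minus WT, at -9.29 points (-13.7 to -4.85), was just under the size required. The call was lost with CpGs of at least 5 reads in every library (-4.59 points), less the open sea difference (-8.17) and with counts per read (-10.98 points, exact adjusted p = 0.119). Over the span with its flanks HOM minus WT was -10.6 points (-13.8 to -7.37) and was called, with counts per read also (exact adjusted p = 0.0113). The whole-span call was lost when only CpGs with at least 5 reads in every library were kept (-7.96 points), with the mean of CpG levels (-8.51) and less the open sea difference (-7.17). The end window with the start read 40.4%, 40.2% and 30.4%, and the far end 81.7%, 71.3% and 71.0%, neither of them called.

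A CpG island inside H2-Eb1 (chr17:34309634-34309951, 30 CpGs) was thinly covered, with 170, 99 and 119 reads, and read 22.4%, 35.4% and 7.56%. The run around it (chr17:34309452-34309990) read 25.6%, 37.1% and 14.2% and was called lower in HOM than in HET (-22.9 points, exact adjusted p = 0.000748). With the CpGs that had at least 5 reads in every library the difference turned to 13.7 points. The run then fell under the minimum for a test, so its direction is uncertain. Coverage of H2-Eb1 was 0.935, 0.797 and 0.864 times the library mean in WT, HET and HOM, the lowest of the members in each library.

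**Figure D3:**
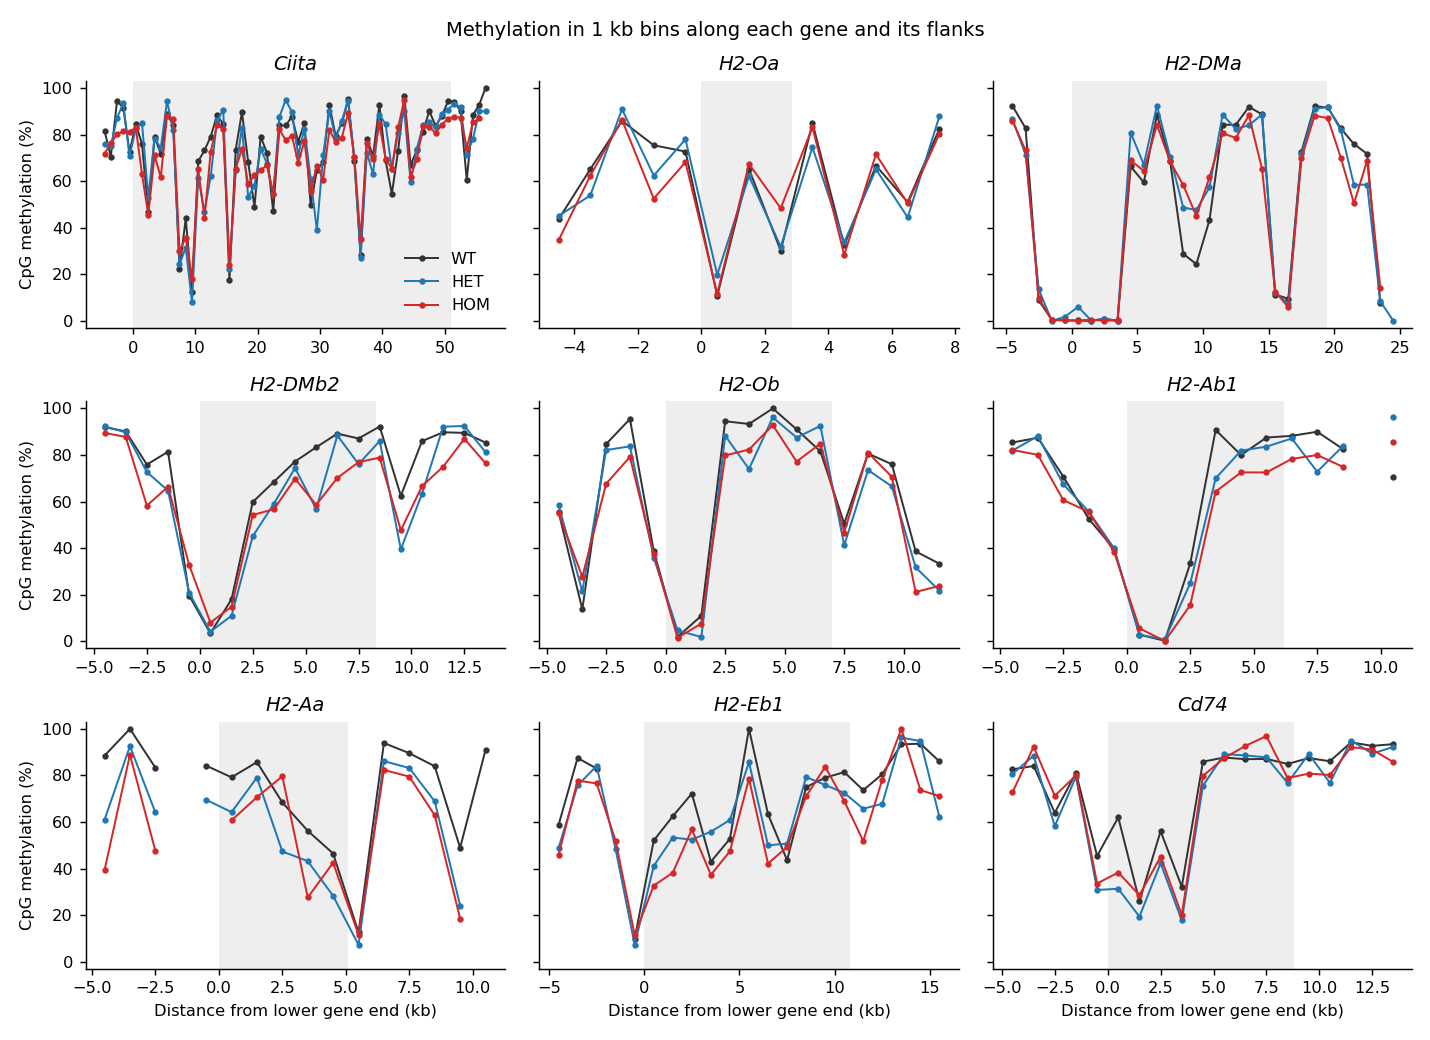
Methylation (y axis, percent) in 1 kb bins along each gene and 5 kb on each side, by distance from the lower gene end in kb, for the WT, HET and HOM libraries, with the gene span in grey. The lines dip near one end of most genes, while Ciita dips only inside its span and WT lies above both mutant lines over most of H2-Aa.

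H2-DMa and H2-DMb2 encode the alpha chain and a beta chain of H2-DM, the editor that exchanges peptides on class II molecules. The lower end of H2-DMa (chr17:34119693-34139101) lies in a CpG island that it shares with Brd2, a bromodomain gene, and which extends over 390 CpGs (chr17:34118365-34122981). The CpG-richer end read 0.297%, 2.89% and 0.215% over 1349 to 1935 reads, and the run over the island (chr17:34116660-34123897, 420 CpGs) 0.759%, 3.0% and 0.881%. HET alone was above 1% there. HET minus WT was 2.24 points over the run (1.65 to 2.86, exact adjusted p = 5.13e-10), a small difference with a narrow counting interval, and its interval spans 0 with counts per read (-0.296 to 4.87). The body of H2-DMa read 41.5%, 47.7% and 43.7%, again with the highest level in HET (6.2 points above WT, 4.37 to 8.02). It takes in part of that island, so its low level is partly that of the island. It also holds a low run of 43 CpGs (chr17:34135069-34136832) that read 4.93%, 5.58% and 5.50% and was not called. That run lies outside the promoter windows searched for the X and Y letters.

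One run inside H2-DMa was lower in WT than in both mutant libraries. At chr17:34129079-34129807 (15 CpGs) WT read 13.1% (9.64 to 17.7, 274 reads), HET 28.3% (23.9 to 33.2, 357 reads) and HOM 31.05% (25.9 to 36.7, 277 reads). It was called higher in HOM (17.9 points, 11.1 to 24.6, exact adjusted p = 4.43e-05) and in HET (15.2 points, 8.83 to 21.2, exact adjusted p = 0.000454). The runs on either side of it read 17.9%, 25.4% and 24.3%, and 32.0%, 40.4% and 46.7% (WT, HET, HOM), and were not called. With counts per read both calls were lost (exact adjusted p = 1 for each), while the intervals, which are not adjusted over runs, lay above 0 (4.75 to 30.2 and 3.52 to 26.8 points).

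H2-DMb2 (chr17:34143229-34151553) has its RefSeq start inside the span, in a run of 28 CpGs (chr17:34142675-34145255) at 13.1%, 9.47% and 16.5%. Its CpG-richer end, below the start, read 13.6%, 16% and 27.03% over 162 to 275 reads and was called higher in HOM than in WT (13.4 points, 5.27 to 21.1, exact adjusted p = 0.018) and than in HET (11 points, exact adjusted p = 0.0346). The call was lost with CpGs of at least 5 reads in every library (5.66 points against WT), with the mean of CpG levels (2.26 points) and with a window from 500 bp outside (3.43 points). The body read 61.0%, 59.1% and 57.3%. H2-DMb1, a closely similar gene, lies next to it, and reads could be placed on either. This was not tested, so the levels of both are uncertain.

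H2-Oa and H2-Ob encode the alpha and beta chains of H2-O, which holds H2-DM back in B cells. H2-Oa (chr17:34092379-34095234) had the densest low-methylated runs of the members: 7 within 12.9 kb, or 5.44 per 10 kb, where the median gene had 0.519. A run over its start (chr17:34092349-34093160) read 4.26%, 6.79% and 4.98%. The RefSeq table also places BC051537 over several of these runs. At the far, CpG-richer end of the gene WT, HET and HOM read 41.2%, 46.1% and 59.2% (291, 458 and 488 reads), with HOM above both others. HOM was called higher than WT (18 points, 10.7 to 25, exact adjusted p = 8.28e-05) and than HET (13.2 points, 6.79 to 19.4, exact adjusted p = 0.00137). A run inside that end (chr17:34094707-34095212, 20 CpGs) read 12.8%, 22.1% and 31.3% and was called higher in HOM than in WT (18.5 points, 10.2 to 26.5, exact adjusted p = 0.00114).

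The end window that holds the H2-Oa start had a lower pooled level in HOM. It read 31.9%, 33.5% and 21.7%, called lower in HOM than in WT (-10.2 points, -15.9 to -4.52, exact adjusted p = 0.0151) and than in HET (-11.9 points, exact adjusted p = 0.0025). The opposite differences at the ends of H2-Oa shrank when each CpG counted equally, to 6.82 points at the far end and -1.40 at the start in HOM minus WT, and neither was then called. At the start the call was also lost less the open sea difference (-6.80 points) and with a window from 500 bp outside (-3.21 points). Coverage of H2-Oa was 1.34, 1.35 and 1.69 times the library mean in WT, HET and HOM. In the start window the outer 1 kb (chr17:34091379-34092378) held 187 of 442, 218 of 510 and 151 of 480 reads. The level of that 1 kb was 72.7%, 78.0% and 68.2%. The part of these coverage differences in the levels was not tested. H2-Ob (chr17:34238905-34245908) showed no called region. A run over its start (chr17:34238391-34240591, 29 CpGs) read 8.12%, 6.70% and 9.88%, a run 3536 bp below the gene (chr17:34234799-34235369) read 2.47%, 4.13% and 6.91%, and the body read 63.3%, 58.0% and 56.3%.

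Cd74, the invariant chain that guides class II molecules to endosomes (chr18:60803849-60812652), was lower in HET at one end. The lower end read 52.7% in WT (42.6 to 62.7, 91 reads), 31.0% in HET (24.5 to 38.3, 171 reads) and 40.3% in HOM (33.4 to 47.7, 176 reads). HET minus WT was called (-21.8 points, -33.6 to -9.25, exact adjusted p = 0.0414), and HOM, in between, was not (-12.4 points, -24.5 to 0.15). The HET call was lost with CpGs of at least 5 reads in every library (-18.4 points, exact adjusted p = 0.227) and less the open sea difference (-21.1 points, exact adjusted p = 0.0546). It was also lost with a window from 500 bp outside (-26.7 points, exact adjusted p = 0.0757) and with counts per read (-21.3 points). The run over this end (chr18:60803211-60805264, 20 CpGs) repeated the order at 43.9%, 23.5% and 32.5%, with HET called lower (-20.3 points, -29.4 to -11.1, exact adjusted p = 0.0012), and overlaps that end. The lowest Cd74 run lies inside the gene (chr18:60807147-60807800) at 8.65%, 2.94% and 10.2%. The upper end was high at 87.1%, 85.2% and 80.3%, and the body read 66.4%, 60.2% and 65.4%.

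**Figure D4:**
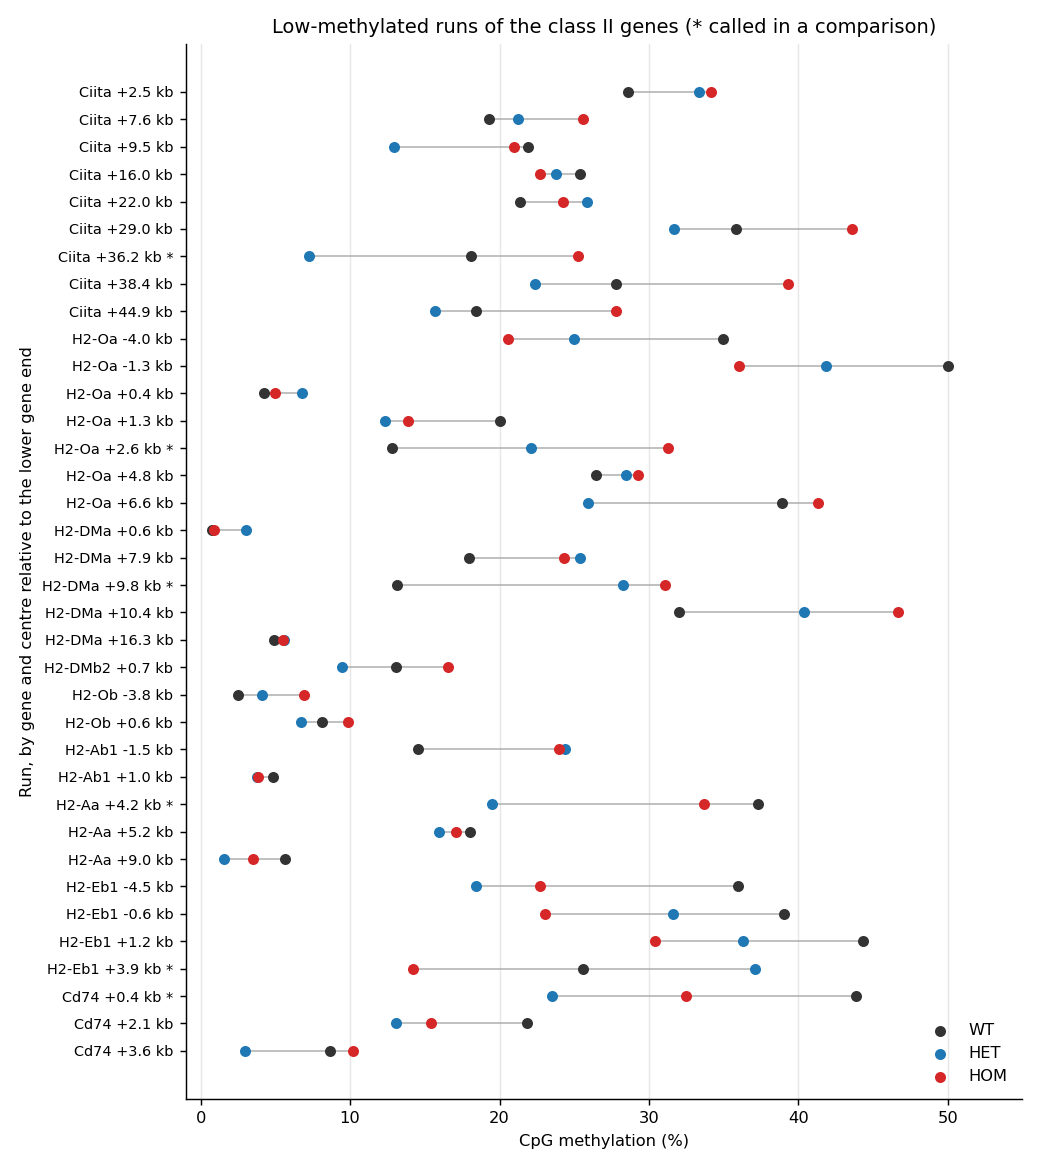
Methylation (x axis, percent) of each tested or untested low-methylated run of the 9 genes, named by gene and distance of its centre from the lower gene end, in the WT, HET and HOM libraries, joined by a line. Runs marked with a star were called in at least 1 comparison, among them the H2-DMa run at 13.1%, 28.3% and 31.05% and the Cd74 run at 43.9%, 23.5% and 32.5%.

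The other genes of the class II pathway, listed by function, gave few calls against WT. Of 22 genes (the RFX and NF-Y subunits, cathepsins and other peptide-making enzymes, and regulators such as Irf8), 21 were matched, H2-Ea being the exception. At CpG-richer ends 0 of 21 were called in any of the 3 comparisons, and the median difference was -2.01 points in HOM minus WT and -0.37 in HET minus WT. At other ends Cd83, a protein that keeps class II molecules on the cell surface, was called lower in HOM (87.6%, 82.4% and 63.6% in WT, HET and HOM, exact adjusted p = 8.68e-05). Irf8, a transcription factor of B and myeloid cells, was called lower in HET (48.3%, 31.9% and 45.1%, exact adjusted p = 0.00301), and so was H2-DMb1 (69.7%, 46.3% and 52.9%, exact adjusted p = 0.0069). These are 1 of 21 lower in HOM, beside 4.23% of all other ends, and 2 of 21 lower in HET, beside 1.06%. In HOM minus HET 1 of 21 other ends was called higher, that of Irf8 (13.1 points, exact adjusted p = 0.00837, beside 0.777% of all), and 1 lower, that of Cd83 (-18.8 points, exact adjusted p = 0.00142, beside 3.75%). In bodies, 1 gene was called, the cathepsin gene Ctsl, higher in HET (49.0%, 62.1% and 53.6%, exact adjusted p = 5.11e-10), beside 0.541% of all bodies.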

How the data were processed

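Whole-genome bisulfite sequencing of splenic B cell DNA (200 ng, sheared to about 800 bp, read in pairs of 150 bp according to the labels' protocols) gave the values used. The authors deposited, per the file headers, raw counts of methylated and of covering reads for each CpG, with no normalization. The table has 1 pair of B cell columns per genotype, although the labels list 2 samples, and no source used here says which sample a column holds. Per the submitters' processing notes, the tools were Bismark with Bowtie2, Trim Galore 0.2.8 and Picard 1.91, or BWA 0.7.13, Picard 2.3.0 and MethylDackel, with build mm10. The set that made the columns and any filter are not given in the sources used here. Blood samples were not analysed here.

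Counts were summed over regions, and those with 3 or more CpGs and 30 or more CpG reads per library were compared. Mean depth was 9.18 (WT), 12.9 (HET) and 9.85 (HOM) reads per CpG. Gene spans were read from RefSeq genes on GRCm38.p6 (mm10). That table gives no strand, exons or introns, so these were not assigned, and starts came from the RefSeq promoter table. CpG islands and open sea (over 4000 bp from an island) were found from CpG positions. Levels carry Wilson and differences Newcombe 95% intervals. The tests were run in Python 3.11.15 with numpy 2.4.6 and scipy 1.17.1 and were tried on simulated counts for CpG-richer ends. These counts were drawn without the linkage of CpGs on one read, so they do not give the error rate of the calls.

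All 9 members are named, with every run called in a comparison and each member's lowest run. Of other lists up to 4 called genes are named. The members and lists were chosen with earlier results of these data known. Alternatives changed the depth minimum, the averaging of CpGs, the size required, the end window, the run limit, the open sea shift and read linkage. Whole-span alternatives were added after the data had been seen.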

Additional observations from a re-analysis of the deposited data

How the results depend on the processing

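No paired analysis was possible because the table holds 1 pair of columns per genotype and the columns carry no replicate number, and leaving out a replicate was not possible for the same reason. With counts divided by CpGs per read, the members called numbered 0 at CpG-richer ends, other ends and runs in each comparison and in bodies for HET minus WT and HOM minus HET. Over all features this setting left 0 to 2 calls a direction at ends, 6 to 16 of 41944 in runs, and in bodies 13 higher and 26 lower (HET minus WT) and 9 higher and 181 lower (HOM minus HET) of 17885. Pooled differences were then -4.14 (HOM minus WT) and -5.20 (HET minus WT) at CpG-richer ends, -1.70 in bodies and -2.10 in runs (HET minus WT), and 3.38 in runs (HOM minus HET).

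With a required difference of 20 points the count of calls was 0 at CpG-richer ends, in bodies, at other ends except for HET minus WT, and in runs for HOM minus WT, and 1 in runs for the other two comparisons. All CpG-richer ends then gave 26 higher and 66 lower of 19388, and all runs 1132 and 650 of 69978 (HOM minus WT). All other ends gave 40 and 115 of 18020, and all bodies 6 and 27 of 18299 (HOM minus WT). Less the open sea difference, the pooled differences were 1.64 (from -1.80) and 3.85 at CpG-richer ends (HOM minus WT, HOM minus HET), -5.78 at other ends (HOM minus WT), 0.917 and 0.585 in bodies (both reversed in sign) and 4.56 and 4.36 in runs. The calls were then 0 at other ends, 0 in bodies for HOM minus WT and HOM minus HET, and 8 in runs for HOM minus HET (7 higher, 1 lower). Over all 69978 runs the calls rose as well, from 2222 to 5067 higher, and fell from 1193 to 859 lower. All other ends gave 396 higher and 206 lower (HOM minus WT), and all bodies 171 and 152 (HOM minus WT) and 113 and 138 (HOM minus HET).

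With the mean of CpG levels, the differences were -5.22, -5.30 and 0.0795 at other ends (HOM minus WT, HET minus WT, HOM minus HET, the last reversed), -3.77, -3.09 and -0.679 in bodies, and -2.90 and 4.33 in runs (HET minus WT, HOM minus HET), with 0 calls at CpG-richer ends (85 higher and 360 lower of all 19388 in HOM minus WT) and 0 at other ends for both HOM comparisons (89 and 546 of 18020 in HOM minus WT). With CpGs of at least 5 reads, 1 CpG-richer end was called in each HOM comparison and 0 other ends in HET minus WT. In HOM minus HET 0 bodies and 1 run were called. The H2-Eb1 run turned to 13.7 points but fell under the minimum for a test. All CpG-richer ends then gave 152 higher and 512 lower of 18882 (HOM minus WT), and all runs 1922 and 936 of 67026 (HOM minus HET). All other ends gave 73 higher and 69 lower of 17011 (HET minus WT), and all bodies 36 and 313 of 18159 (HOM minus HET). With end windows of 500 bp outside the calls were 1 at CpG-richer ends (both HOM comparisons) and 2 (HOM minus WT) and 0 (HET minus WT) at other ends, where all gave 111 higher and 489 lower, and 101 and 112, of 16302. Whole spans gave 2 calls (HOM minus WT), 0 (HOM minus HET) and a difference of -1.34 (HET minus WT). Runs below 30% gave a pooled difference of 0.675 in HET minus WT, turned in sign from -0.465, with 1 call higher and 0 lower in place of 1 and 3 (all runs 308 and 433 of 43066), and 0.606 in HOM minus HET. Runs found in the library not compared gave 2 higher and 2 lower in HET minus WT (all runs 1105 and 1567 of 75384). The cause was not tested. Depth limits single windows: 91 reads in the WT end of Cd74 leave an interval of 42.6 to 62.7%.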

Other observations

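The 6 genes that lie between the class II members on chromosome 17 gave 1 call. H2-DMb1 was lower in HET than in WT at its other end, where 1.06% of all other ends were called lower. No end or body of Brd2, Psmb9, Tap1, Psmb8 or Tap2 was called. Tap1, a subunit of the peptide transporter of class I presentation, shared a start region with Psmb9 that was nearly unmethylated, with 0.112% (WT), 0.342% (HET) and 0% (HOM, 0 of 854 reads, which allows up to 0.448%) in the Tap1 window. The bodies of Tap1 (67.4%, 73.0% and 64.5%) and Tap2 (57.0%, 61.4% and 53.1%) had HOM minus HET differences of -8.46 and -8.36 points, short of a call. Of 13 class I presentation genes, Tapbp was called lower in HOM at its other end (29.3%, 21.9% and 17.4%) and the body of H2-D1 higher in HET (22.4%, 34.8% and 28.3%). These are 1 of 13 other ends, beside 4.23% of all, and 1 of 13 bodies, beside 0.541% of all.

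By the levels at both ends and the body in the 3 libraries, the genes closest to the median of the members among 16829 genes were Ncan, Pcdha12, Lbhd2, Pcdha9 and Pcdha3, with root mean square differences of 3.22 to 4.85 points over 9 values. The members themselves differed from that median by 3.33 (H2-Eb1) to 34.0 points (Cd74). CpGs at or below 10% in 1 library and at or above 70% in both others, with at least 8 reads in each, numbered 0 in all 9 members. Over the autosomes they numbered 51, 131 and 476 of 8881811 for WT, HET and HOM. These are 0.00574, 0.0147 and 0.0536 per 1000 CpGs of that depth. The members held 47 (H2-Aa) to 431 (Ciita) such CpGs each, so a count of 0 says nothing particular to them.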
